A study of Mus musculus with 6 samples.

Results

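The Wnt ligands, their Frizzled receptors and the main secreted inhibitors of Wnt signalling were described in mouse aorta with and without the microRNA gene MiR26b. Members were all genes whose symbol begins with Wnt, Fzd, Sfrp or Dkk followed by a digit, or is Wif1. These were 39 of 36557 rows of the deposited tables and 38 genes, since Fzd6 has 2 rows. They comprised 19 Wnt, 10 Fzd, 4 Sfrp and 4 Dkk genes and Wif1. RNA came from the arch and thoracic part of the aorta, in 3 libraries of Apoe-/- mice (control) and 3 libraries of Apoe-/- MiR26b-/- mice (knockout). Both groups lacked apolipoprotein E, which makes mice prone to atherosclerosis, and both had received HFD (high-fat diet) for 4 weeks. The labels give no age, sex or strain and name no tissue-specific promoter or Cre line behind either deletion. They also leave unsaid whether the 6 libraries stand for 6 animals, so the p-values cover the spread among libraries, which may be technical.

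Wnt proteins are secreted lipid-modified ligands that bind the cysteine-rich domain of Frizzled receptors. With the coreceptors Lrp5 and Lrp6 they stabilise beta-catenin and so switch on target genes through TCF and LEF factors, and with Ror and other receptors they act through cell polarity and calcium routes. Secreted Frizzled-related proteins (Sfrp) and Wif1 bind Wnt ligands directly, and Dickkopf proteins (Dkk) bind the Lrp coreceptors, Dkk3 being a divergent family member for which this action is not established. In the vessel wall the pathway is known for roles in smooth muscle growth, endothelial function and the calcification of plaques.

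The deleted microRNA and its close relative miR-26a, which is encoded elsewhere, are shown first because they share a seed (bases 2 to 8, in capitals), the stretch that pairs with target transcripts. Both sequences are from RefSeq on GRCm38.p6.
mmu-miR-26b-5p: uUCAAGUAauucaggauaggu
mmu-miR-26a-5p: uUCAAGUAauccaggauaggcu
MiR26b lies on chromosome 1, and its mature form spans 74394324 to 74394344 on the plus strand (GRCm38). For every gene the longest 3′ UTR in GENCODE release M21 was searched for UACUUGA, the complement of the seed, on the transcript strand. This match followed by an A (8 bases) occurred in 1 of the 38 members, Wnt5a, and the match without that A (7 bases) in Fzd4, Fzd6, Wnt3a and Wnt8b. Of all tested genes with a 3′ UTR, 4.82% held the 8-base match and 11.1% held a match of either kind; of the 29 members tested below, 3 did (10.3%). The matches of those 3 genes are printed with their flanks, matched bases in capitals, since the values of these genes are read against them below.
Wnt5a: uguuccuagugUACUUGAAcaguugcauuu
Fzd4: ucuucuuauugUACUUGAcuucacagucc
Fzd6: cccaccuggaaUACUUGAggaccuggggu
They lie in the 3′ UTR at chr14:28524339-28524346 (Wnt5a), chr7:89412060-89412066 (Fzd4) and chr15:39036678-39036684 (Fzd6), all on the plus strand of GRCm38. A match is a description of the sequence and does not show binding. None of the 6 members called below held a match of either kind, and none held the shorter match to bases 2 to 7 followed by an A, which occurred in Fzd6, Wnt5a and Wnt9b.

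Library totals of the estimated counts ran from 51634139 to 54817547. The count table held 0 rows for MiR26b or any other microRNA gene, so the deletion was not checked. The unit CPM is a count relative to the TMM-adjusted library total, and levels of different genes are compared only on the deposited length-scaled level, a TPM rescaled by library. On the first principal component (60.4% of variance) knockout replicate 3 stood at 1.48, between the controls (-47.04 to -25.77) and the other knockouts (48.10 and 57.16). Markers of the cell types of the wall were present in all libraries, with no listed marker at 0 in every library. The summed level of 8 smooth muscle markers was 31824 to 36539 CPM in controls and 21522 to 25542 CPM in knockouts, with 0 of 8 called higher and 4 called lower. The 8 macrophage markers summed to 498 to 655 CPM in controls and 1277 to 3658 CPM in knockouts, the lowest knockout being replicate 3, and all 8 were called higher. The 9 adventitial fibroblast markers summed to 6491 to 7633 and 8394 to 10698 CPM, with 4 called higher and 0 lower. The 6 lymphatic endothelial markers (67.1 to 75.4 and 99.9 to 128 CPM, 2 called higher) also summed to more in every knockout. So did the 6 markers of neurons and Schwann cells (29.3 to 33.7 and 36.6 to 42.1 CPM), of which 1 was called higher, Tubb3. The 8 blood endothelial markers overlapped in sum (1753 to 2202 and 1937 to 2129 CPM) with 3 called higher, and so did the 7 markers of cartilage-like cells (61.6 to 69.0 and 61.1 to 126 CPM) with 1 called higher, Sox9. The 8 brown fat markers varied widely within both groups, from 357 to 1275 CPM in controls and from 218 to 900.0 CPM in knockouts, with 0 called, and so did the 8 white fat markers, from 681 to 1886 and from 840.4 to 1599 CPM. Control replicate 2 stood apart in B cell markers (65.4 CPM, against 10.1 and 7.30 in the other controls) and mesothelial markers (105 CPM, against 28.2 and 29.2). In these lists and those of T cells and skeletal muscle 0 were called, and the sums overlapped between groups.

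In the knockouts the secreted inhibitor genes Sfrp4 and Dkk2 rose and Dkk3 and the receptor genes Fzd5, Fzd7 and Fzd8 fell. Of 11 tested Wnt genes 0 was called, against 10.3% of all tested genes, and among only 11 genes 0 is near that share. By edgeR 0 of the 11 had an unadjusted p under 0.05, against 5332 of all 17392 tested genes. DESeq2 called 0 of them, against 3443 of all 17386 genes it tested. Sfrp4 rose 2.52-fold and Dkk2 4.24-fold, and the 4 falls were between 1.25-fold (Fzd5) and 1.74-fold (Fzd8). Of the 38 members, 29 passed the filter on low counts and were tested with edgeR's quasi-likelihood test, a call being a Benjamini-Hochberg adjusted p under 0.05 over all 17392 tested genes. The 6 called members were 20.7% of those tested, against 10.3% of all tested genes. By direction, 2 of 29 members were higher, 6.9% against a background of 6.5%, which is near it, and 4 of 29 were lower, 13.8% against 3.84%. Groups did not overlap for 12 of the 29 (background 36.1%), with all knockouts above all controls for 5 (18.9%) and below them for 7 (17.2%). The median log2 difference was -0.06 over the tested members and -0.00 over all tested genes. RNA came from tissue and not from sorted cells, so fewer cells of a type and less RNA per cell cannot be told apart in any of these values.

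**Figure D1:**
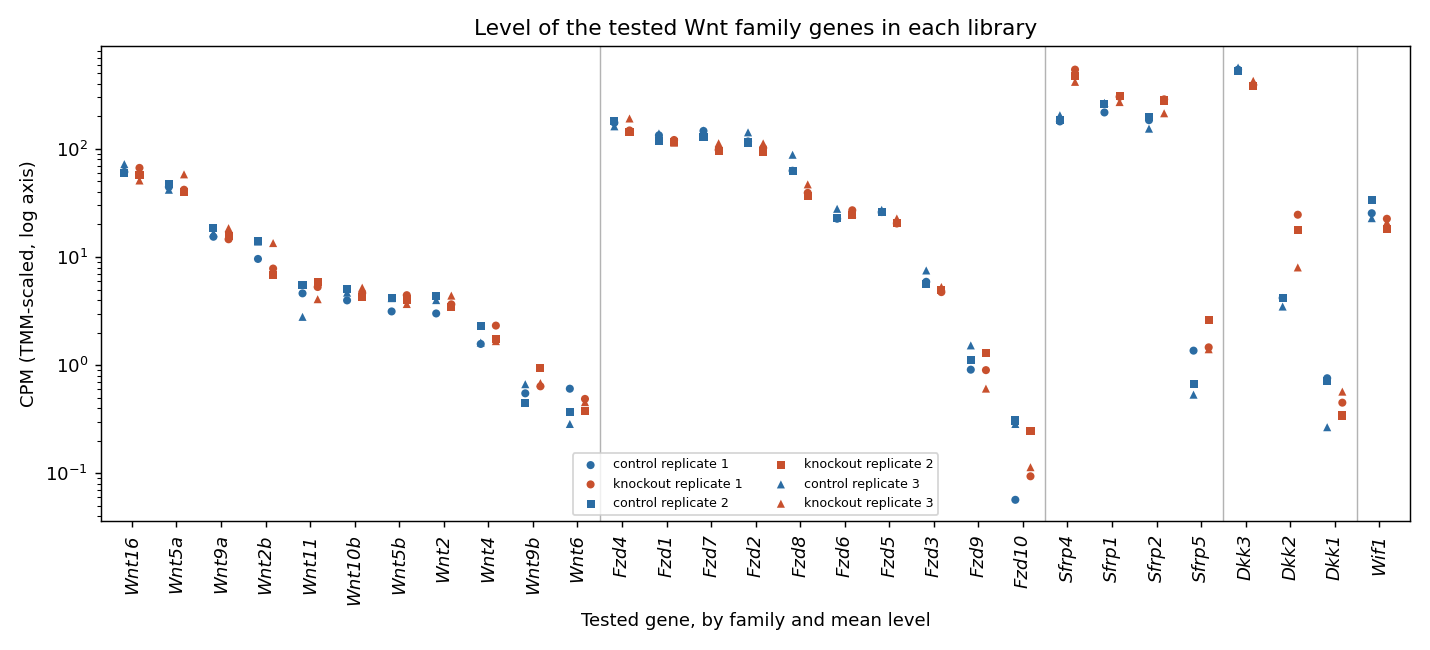
CPM on a log axis for the 29 tested genes in each of the 6 libraries (blue, controls; orange, knockouts; symbol shape, replicate number), ordered by family and mean level. Dkk2, Sfrp1, Sfrp2, Sfrp4 and Sfrp5 have all 3 knockouts above all 3 controls (5 of 29 genes, against 18.9% of all tested genes). Another 7 have all knockouts below all controls (17.2% of all tested genes), and the Wnt genes overlap between groups.

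The secreted Frizzled-related proteins carry a Frizzled-like cysteine-rich domain and bind Wnt ligands outside the cell. Sfrp4 (ENSMUSG00000021319, chromosome 13, 19623104 to 19632994, plus strand) stood at 179.7, 185 and 205 CPM in control replicates 1 to 3 and at 542, 477 and 418 CPM in knockout replicates 1 to 3. The lowest knockout, replicate 3, was well above the highest control. Its mean was 189.8 ± 13.4 CPM in controls and 479 ± 62.2 CPM in knockouts (SD, n = 3 each), with a log2 difference of 1.33 (SE 0.11) and an edgeR adjusted p of 0.00807; the 95% interval of the fold was 2.10 to 3.02. Sfrp2 (ENSMUSG00000027996, chromosome 3, 83766321 to 83774316, plus strand), which is abundant in fibroblasts, had 185, 196 and 154 CPM in the controls and 288, 281 and 214 CPM in the knockouts. The groups did not overlap, but the adjusted p was just over the threshold, with a log2 difference of 0.55 (SE 0.14) and an edgeR adjusted p of 0.0551 and a fold of 1.46 (95% interval 1.16 to 1.85). It was called by DESeq2 (adjusted p of 0.00248), when libraries were scaled by size alone (0.0440) and without knockout replicate 3 (0.00528), and over all alternatives its adjusted p ranged from 8.35e-08 to 0.184. The gene Gm26771 overlaps exons of Sfrp2 on the opposite strand, as do Gm38058 for Fzd5, Gm2670 for Wnt5a, Gm26704 for Fzd6 and Gm8398 for Wnt11. Whether the libraries kept strand is not given in the sources used here, so reads from the shared bases alone cannot be told apart. The longest exon overlaps were 152 (Fzd6) to 619 bases (Fzd5), and these opposite-strand genes were not among the tested genes. Sfrp1, the best studied member of the family, had 218, 262 and 267 CPM in controls and 304, 307 and 272 CPM in knockouts, a narrow separation with an adjusted p of 0.148 and a fold interval of 1.01 to 1.39. Sfrp5 was scarce, at 1.36, 0.672 and 0.532 CPM in controls and 1.46, 2.64 and 1.40 CPM in knockouts. Its fold of 2.14 had an interval of 1.06 to 4.32 and an adjusted p of 0.138. All 4 Sfrp genes had every knockout above every control, as did 18.9% of all tested genes, and 1 of the 4 was called higher, as were 6.5% of all tested genes. The summed level of the adventitial fibroblast markers was also higher in every knockout than in any control, as given above, although Col1a1 and Col1a2 overlapped. The part of these markers in the Sfrp values was not tested.

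The 2 called Dickkopf genes changed in opposite directions. Dkk2 (ENSMUSG00000028031, chromosome 3, 132085292 to 132180304, plus strand), which binds Lrp5 and Lrp6 and can dampen beta-catenin signalling, stood at 4.18, 4.21 and 3.48 CPM in the controls and at 24.6, 17.7 and 8.01 CPM in the knockouts. The controls were close together and the knockouts spread widely, replicate 3 being the nearest to the controls. Its mean was 3.95 ± 0.411 CPM in controls and 16.8 ± 8.35 CPM in knockouts (SD, n = 3 each), with a log2 difference of 2.08 (SE 0.39) and an edgeR adjusted p of 0.0325, and the fold interval was 2.22 to 8.10. Its call was lost with limma-voom (adjusted p of 0.0703) and with limma on log2(signal + 1) (0.0580), in a range of 1.02e-31 to 0.125 over all alternatives. The fold was 3.25 without knockout replicate 1 and 5.34 without knockout replicate 3. The summed macrophage markers were likewise lowest in replicate 3 among the knockouts. So were those of adventitial fibroblasts, cartilage-like cells, T cells, neurons and Schwann cells, and skeletal muscle, while the other marker lists were not. Replicate 3 was also the knockout nearest to the control mean for 82.4% of all called genes. The part of any of these markers in the value of Dkk2 was not tested. Dkk3 (ENSMUSG00000030772, chromosome 7, 112116017 to 112159057, minus strand), a divergent member of the family, had 542, 524 and 567 CPM in the controls and 390.4, 383 and 427 CPM in the knockouts. All knockouts lay below all controls, and the spread within each group was small. The means were 544 ± 21.4 and 399.9 ± 23.6 CPM (SD, n = 3 each), with a log2 difference of -0.44 (SE 0.07) and an edgeR adjusted p of 0.0255, a fall of 1.36-fold. Dkk1, the best known coreceptor inhibitor, was low in both groups, at 0.756, 0.711 and 0.266 CPM in controls and 0.449, 0.342 and 0.568 CPM in knockouts, and overlapped between the groups (fold interval 0.389 to 1.58). Wif1, which sequesters Wnt ligands, had 25.4, 34.0 and 22.9 CPM in controls and 22.6, 18.1 and 20.9 CPM in knockouts. These ranges were just apart in CPM and overlapped on the length-scaled level, and the adjusted p was 0.138 (fold interval 0.573 to 0.978).

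The order of the secreted inhibitors by length-scaled level was not the same in the groups. In controls Dkk3 was highest at 257 ± 10.5, then Sfrp4 at 175 ± 11.9 and Sfrp2 at 154 ± 18.2, whose library ranges just overlapped. In knockouts Sfrp4 was highest at 456 ± 60.4, above Sfrp2 at 229.9 ± 37.1 and Dkk3 at 193 ± 10.3, and the ranges of Sfrp2 and Dkk3 overlapped. Over the 4 Sfrp genes together the length-scaled level was 419 ± 11.7 in controls and 795 ± 102 in knockouts (SD, n = 3 each), and Sfrp4 made the larger part of the difference. The 10 Fzd genes, with 1 copy of Fzd6, summed to 225 ± 15.8 and 189 ± 12.8, and the 4 Dkk genes to 259 ± 10.2 and 200.3 ± 7.99. The 19 Wnt genes summed to 115 ± 5.20 and 110.1 ± 5.76, of which Wnt16 alone made 66.1 and 61.3. The summed ligand level therefore overlapped between the groups while the receptor, Sfrp and Dkk sums did not. These sums are descriptions and were not tested.

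**Figure D2:**
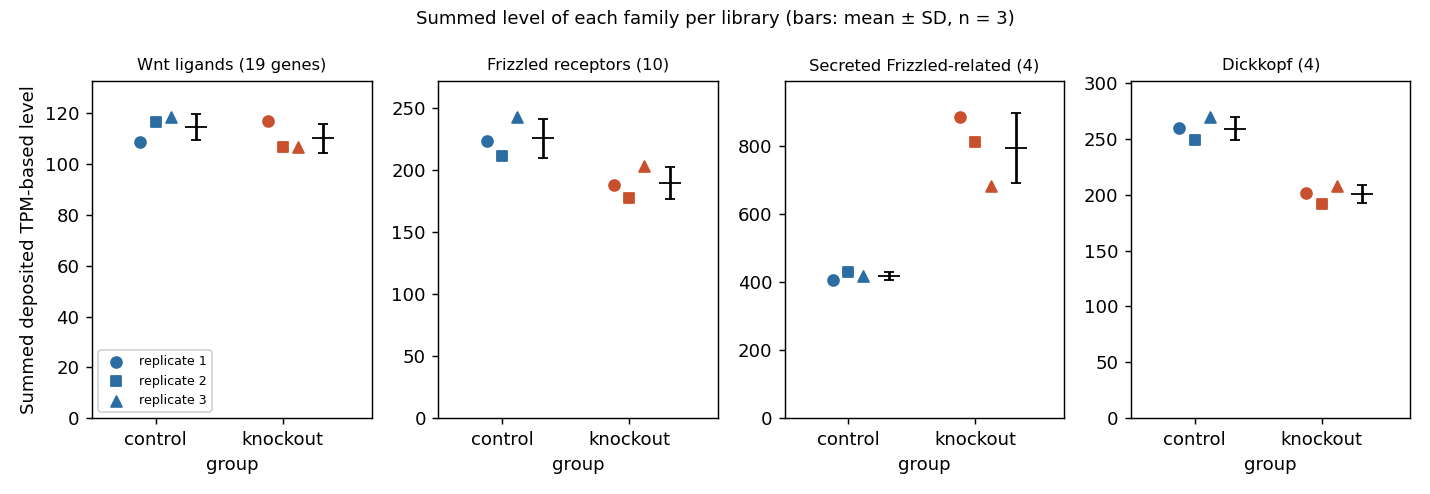
Summed deposited length-scaled (TPM-based) level of 4 families in each library, by group (points, libraries; bars, mean ± SD, n = 3). The Sfrp sum is between 407 and 431 in controls and between 684 and 886 in knockouts, and the Wnt sums of the groups overlap.

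Frizzled receptors cross the membrane several times and bind Wnt ligands at the cell surface. All 10 Fzd genes were tested, 0 rose (6.5% of all tested genes) and 3 fell (3.84%). Fzd8 (ENSMUSG00000036904, chromosome 18) stood at 62.9, 62.5 and 88.4 CPM in control replicates 1 to 3 and 39.2, 36.6 and 47.0 CPM in the knockouts. Control replicate 3 was higher than the other controls, and every knockout was below every control. The means were 71.2 ± 14.8 and 40.9 ± 5.42 CPM (SD, n = 3 each), with a log2 difference of -0.80 (SE 0.16) and an edgeR adjusted p of 0.0356, a fall of 1.74-fold (interval of the knockout to control ratio 0.439 to 0.752). Its call was lost with limma on log2(signal + 1) (adjusted p of 0.0578) and on log2(signal + 0.1) (0.0513), in a range of 7.40e-07 to 0.144 over all alternatives. Fzd7 (ENSMUSG00000041075, chromosome 1, 59482424 to 59486955, plus strand) had 147, 129.8 and 148 CPM in controls and 98.2, 96.3 and 113 CPM in knockouts. Its groups were clearly apart, with means of 142 ± 10.2 and 102 ± 9.12 CPM (SD, n = 3 each), a log2 difference of -0.47 (SE 0.09) and an edgeR adjusted p of 0.0322, and a fall of 1.38-fold. Fzd5 (ENSMUSG00000045005, chromosome 1, 64730558 to 64737751, minus strand) had 26.1, 26.2 and 27.3 CPM in controls and 20.4, 20.7 and 22.7 CPM in knockouts, a small but even fall. Its means were 26.5 ± 0.694 and 21.3 ± 1.28 CPM (SD, n = 3 each), with a log2 difference of -0.32 (SE 0.06) and an edgeR adjusted p of 0.0355. Scaled by library size alone its adjusted p was 0.0526, with limma on log2(signal + 1) and log2(signal + 0.1) it was 0.127 and 0.129, and over all alternatives it ranged from 1.30e-05 to 0.143. The summed level of the smooth muscle markers was also below the control range in every knockout, although Lmod1 overlapped. The part of these markers in the falls of Fzd genes was not tested.

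The other Frizzled genes were not called. Fzd2, a receptor used by Wnt5a among others, had 117, 115 and 142 CPM in controls and 102, 94.8 and 113 CPM in knockouts. Its groups were just apart, at an adjusted p of 0.133. Fzd3, which acts in cell polarity and axon guidance, had 5.90, 5.65 and 7.51 CPM in controls and 4.74, 4.92 and 5.28 CPM in knockouts, also just apart and with an adjusted p of 0.147. Fzd1, a close relative of Fzd2 and Fzd7, had 134, 119 and 139 CPM in controls and 121, 116 and 114 CPM in knockouts. Its groups overlapped, with a log2 difference of -0.16 and an adjusted p of 0.175. Fzd4, the receptor for norrin in vessels and 1 of the 3 tested members with a match to the miR-26 seed, had 175, 181 and 162 CPM in controls and 148, 143 and 191 CPM in knockouts. Knockout replicate 3 was the highest of all libraries and the other knockouts the lowest, and the fold interval was 0.765 to 1.14. Fzd6, which also holds a seed match, had 22.6, 22.8 and 27.9 CPM in controls and 27.1, 24.7 and 25.0 CPM in knockouts for the row in the reference annotation. The other row of Fzd6 held the same values, as when reads are shared out between 2 copies of a gene, and the level given is that of 1 copy. The fold interval was 0.891 to 1.23. Fzd9 had 0.907, 1.11 and 1.52 CPM in controls and 0.898, 1.29 and 0.606 CPM in knockouts, overlapping (fold interval 0.457 to 1.36). Fzd10 was tested at a mean under 1 CPM, between 0.0567 and 0.307 CPM over the libraries. By length-scaled level over all libraries the order was Fzd2 (49.5), Fzd1 (46.5), Fzd7 (42.1) and Fzd4 (38.1), whose library ranges overlapped from each to the next, then Fzd8 (14.5) and Fzd6 (9.93 for 1 copy), which also overlapped, and Fzd5 (5.36), with Fzd9, Fzd3 and Fzd10 at 0.770, 0.670 and 0.0909.

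**Figure D3:**
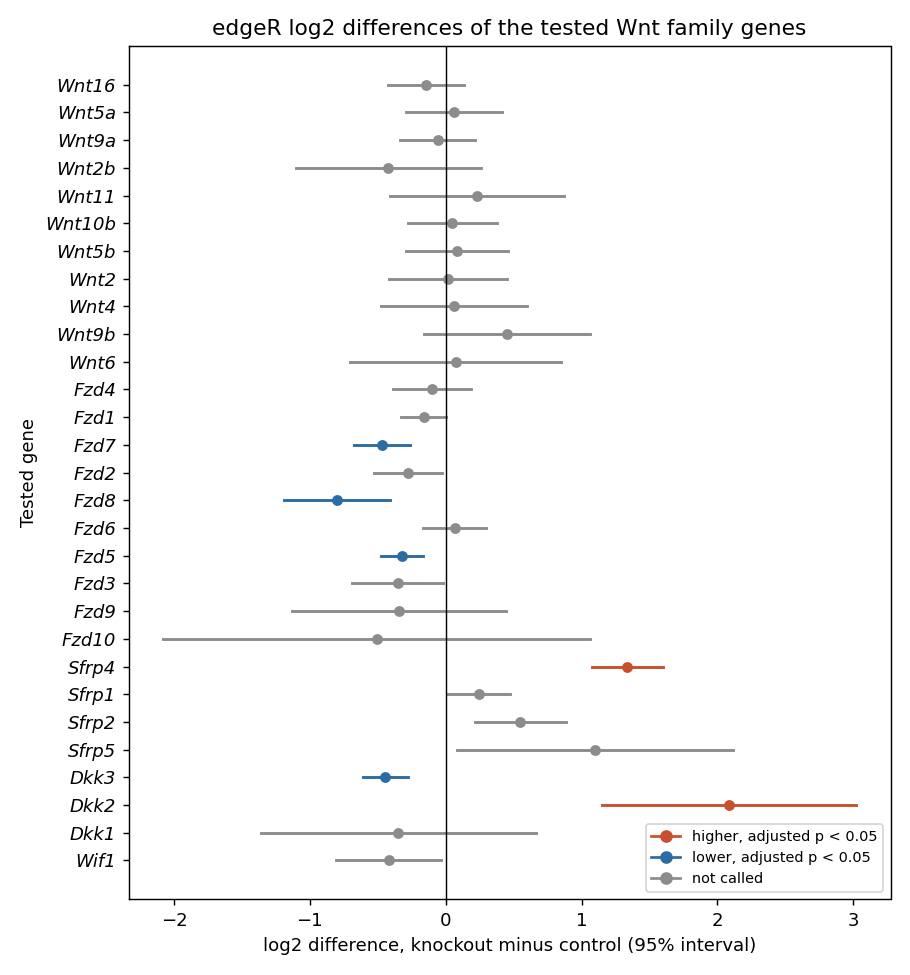
edgeR log2 differences, knockout minus control, with 95% intervals for the 29 tested genes (orange, called higher; blue, called lower; grey, not called). The intervals of the 11 Wnt genes include 0. Those of the called genes Fzd5, Fzd7, Fzd8 and Dkk3 lie below it, as do those of Fzd2, Fzd3 and Wif1, which were not called. Those of Dkk2, Sfrp1, Sfrp2, Sfrp4 and Sfrp5 lie above it.

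Among the ligands 11 of 19 were tested and 0 called, against 10.3% of all tested genes. Among only 11 genes 0 calls is near that share. Wnt16, a ligand studied in bone and smooth muscle, was the highest by length-scaled level, at 63.7 over all libraries, above Wnt5a at 16.7 with no overlap of their library ranges. Wnt16 had 61.3, 59.8 and 72.4 CPM in controls and 66.8, 57.1 and 51.1 CPM in knockouts, with a fold interval of 0.743 to 1.10. Wnt5a, the main ligand of the polarity route and the only member with the 8-base seed match printed above, had 44.5, 47.5 and 41.9 CPM in controls and 41.9, 39.6 and 58.2 CPM in knockouts. Knockout replicate 3 was the highest of the 6 libraries and the other knockouts were within or below the control range. Its log2 difference was 0.06 (SE 0.15; edgeR adjusted p of 0.812), and the fold interval was 0.816 to 1.34. Wnt9a, a ligand of joint development, had 15.4, 18.7 and 16.7 CPM in controls and 14.6, 15.6 and 18.5 CPM in knockouts (fold interval 0.791 to 1.16), overlapping throughout. Wnt2b, a ligand of the beta-catenin route, had 9.60, 14.2 and 13.9 CPM in controls and 7.82, 6.85 and 13.5 CPM in knockouts. Knockout replicates 1 and 2 were below every control and replicate 3 was within their range, and the fold interval was 0.466 to 1.20. Wnt11, which acts in cell movement, had 4.61, 5.51 and 2.80 CPM in controls and 5.28, 5.83 and 4.07 CPM in knockouts (fold interval 0.753 to 1.83). Wnt10b, which restrains fat cell formation, had 3.97, 5.03 and 4.68 CPM in controls and 4.64, 4.31 and 5.21 CPM in knockouts (fold interval 0.823 to 1.30). Both overlapped between the groups. Wnt5b, the close relative of Wnt5a, had 3.14, 4.15 and 4.16 CPM in controls and 4.44, 4.04 and 3.67 CPM in knockouts, and its fold interval was 0.818 to 1.38. Wnt2, a ligand needed in lung development, had 3.01, 4.34 and 3.99 CPM in controls and 3.65, 3.42 and 4.39 CPM in knockouts, with a fold interval of 0.748 to 1.37. Wnt4, known from kidney and gonad development, had 1.57, 2.31 and 1.62 CPM in controls and 2.32, 1.73 and 1.67 CPM in knockouts, with a fold interval of 0.717 to 1.51. No one of these ligands separated the groups. Their intervals do not show that they were equal: for Wnt11 the interval reaches a rise of 1.83-fold.

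For 13 members the level was low. Of these, 9 failed the filter and cannot be judged: Dkk4, Wnt1, Wnt3, Wnt3a, Wnt7a, Wnt7b, Wnt8a, Wnt8b and Wnt10a. Their rounded counts were between 0 and 25 per library, where 10 counts correspond to between 0.187 and 0.192 CPM. Wnt3a, a classical activator of beta-catenin signalling, had 1 count in knockout replicate 1 and 0 in the other libraries, and a count of 0 allows up to 0.0561 to 0.0576 CPM (3 counts, counting error only, and only if 1 deposited count stands for 1 read, which is not given in the sources used here). Wnt7b reached 25 counts in knockout replicate 3 and 1 in control replicate 3. Fitted without the filter, 0 of the 9 was called. Another 4 were tested at a mean log2 CPM under 0: Dkk1, Fzd10, Wnt6 and Wnt9b. Their fold intervals were wide, such as 0.894 to 2.09 for Wnt9b and 0.237 to 2.09 for Fzd10, and all 4 intervals included a fold of 1.

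Several members lie on the chromosome of MiR26b. Wnt6 and Wnt10a lie 0.377 and 0.397 Mb from it, and Fzd5 and Fzd7 lie 9.66 and 14.9 Mb away. Wnt6 was between 0.285 and 0.605 CPM over the 6 libraries with a fold interval of 0.615 to 1.80, Wnt10a was too low to judge, and Fzd5 and Fzd7 fell as given above. Whether genome carried along with the deleted allele bears on the values of Fzd5 and Fzd7 was not tested. Fzd8, Dkk2, Dkk3 and Sfrp4 lie on other chromosomes.

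The other genes of the pathway were taken from a list of 92 symbols, of which 88 were in the table and 84 were tested. Of these, 2 rose and 8 fell, or 11.9% against 10.3% of all tested genes. All 10 calls were lost in edgeR with the fat covariate, and also when any library but knockout replicate 3 was left out. DESeq2 kept 9 of the 10 without knockout replicate 1 and all 10 in its other omissions. By direction, 2.38% were higher against a background of 6.5% and 9.52% lower against 3.84%, and the median log2 difference was -0.06. Among genes of secretion, other modulators and receptor turnover 0 of 18 rose and 4 fell, or 22.2% against 3.84% of all tested genes. Sost, which encodes sclerostin, a secreted inhibitor that binds Lrp5 and Lrp6, had 660.1, 667 and 575 CPM in controls and 297, 258 and 463 CPM in knockouts. Knockout replicate 3 lay between the controls and the other knockouts, and with a log2 difference of -0.90 (SE 0.22) and an edgeR adjusted p of 0.0485 the fall was 1.87-fold. That call was close to the threshold and was lost, among others, when libraries were scaled by size alone (adjusted p of 0.0539) and with the replicate number as a block (0.0742); its adjusted p ranged from 5.71e-30 to 0.174 over all alternatives. Lgr6, a receptor for R-spondins, which strengthen Wnt signals, had 365, 352 and 398 CPM in controls and 205, 183 and 261 CPM in knockouts, a fall of 1.72-fold (adjusted p by edgeR of 0.0304). The related receptor gene Lgr4 fell 1.49-fold (adjusted p by edgeR of 0.0408), and Znrf3, a ligase that removes Frizzled from the membrane, fell 1.34-fold (0.0328). All 4 had every knockout below every control, as did 17.2% of all tested genes. This separation was likely from the start, since these 4 are named because they were called.

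In 3 other groups of the pathway 1 gene each was called, or 9.09%, 4.35% and 5.56% against 10.3% of all tested genes. Of 11 coreceptors and alternative receptors 1 rose and 0 fell: Lrp4, which can bind sclerostin, with 8.26, 8.95 and 7.74 CPM in controls and 12.5, 13.2 and 11.6 CPM in knockouts. It rose 1.49-fold with an edgeR adjusted p of 0.0278, while Lrp5 and Lrp6 had log2 differences of -0.37 and -0.14 and adjusted p of 0.0654 and 0.120. Of 23 genes of the intracellular beta-catenin route 0 rose and 1 fell, the scaffold gene Dvl3 by 1.26-fold (adjusted p by edgeR of 0.0370). The next by p were Tcf7l1 and Gsk3b, with log2 differences of -0.28 and -0.20 and adjusted p of 0.0519 and 0.0884. Of 18 genes of the polarity and calcium route 0 rose and 1 fell, the formin gene Daam1 by 1.19-fold (0.0421). The call of Daam1 was lost in 12 of 25 alternatives. Celsr1 and Celsr2, atypical cadherins of cell polarity, had log2 differences of -0.61 and -0.45 with adjusted p of 0.0603 and 0.0647.

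Of 14 tested common target genes of beta-catenin, 1 rose and 2 fell, or 7.14% and 14.3% against 6.5% and 3.84% of all tested genes. Ccnd1, the cyclin D1 gene, which many other signals also induce, had 22.0, 25.9 and 17.7 CPM in controls and 43.9, 49.1 and 35.5 CPM in knockouts. It rose 1.96-fold (adjusted p by edgeR of 0.0304) with no overlap of groups. Bambi, a decoy receptor of the TGF-beta family, and Twist1, a mesenchymal transcription factor, fell 1.40-fold and 1.25-fold (adjusted p of 0.0478 and 0.0390). Bambi lost its call with scaling by library size alone (adjusted p of 0.0528), limma-voom (0.0578) and the replicate block (0.0812), among others, in a range of 9.84e-06 to 0.171 over all alternatives. Axin2, the most used reporter of the pathway, had 6.09, 5.72 and 5.44 CPM in controls and 4.85, 5.05 and 5.64 CPM in knockouts; its fold interval of 0.751 to 1.08 includes 1. Lef1 had a log2 difference of 0.12 and an adjusted p of 0.834, and Nkd1, a feedback inhibitor, of -0.38 and 0.129. Among other targets not called, Nkd2 had a log2 difference of 0.52 (adjusted p of 0.0559), Cd44 of 1.05 (0.0693), Myc of 0.70 (0.0919) and Ccn4 of 0.71 (0.0996). The first 3 of these had every knockout above every control, as did 18.9% of all tested genes. The uncalled targets named here fall outside the rule for named genes and were chosen after their values were seen. Sp5 and Notum, also common targets, were too low to be tested.

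**Figure D4:**
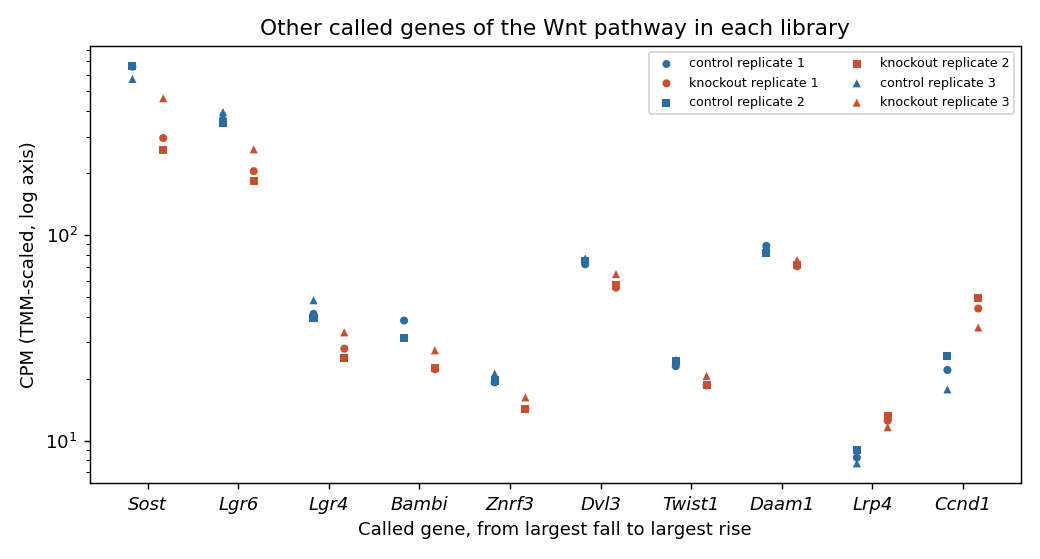
CPM on a log axis in each of the 6 libraries (blue, controls; orange, knockouts; symbol shape, replicate number) for the 10 called genes of the wider pathway, from the largest fall to the largest rise. Sost, Lgr6 and 6 other genes have every knockout below every control (17.2% of all tested genes), and Lrp4 and Ccnd1 have every knockout above them (18.9%). Such separation is likely for genes shown because they were called.

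The number of called members varied with the libraries and the test used, while the direction of each of the 6 was the same in all 25 alternatives. In all 6, knockout replicate 3 was the knockout nearest to the control mean, as it was in 82.4% of all called genes. With knockout replicate 3 left out edgeR called 9 of 29 tested members, the 6 together with Sfrp2 (higher) and Fzd4 and Wnt2b (lower). Calls rose over all genes too: edgeR then called 5079 of 17720 tested genes, against 1798 of 17392 with all libraries. With control replicate 1 or control replicate 3 left out it called 0 members and 0 of all tested genes. In both cases 9 members had an unadjusted p below 0.05, and DESeq2 called 8, the 6 among them. Sfrp4 then had an edgeR adjusted p of 0.0632 and 0.0566. Leaving out control replicate 2, or either of the other knockouts, left Sfrp4 as the 1 member that edgeR called. Fat markers were a further difference between libraries, with a mean over the brown and white fat markers of 4.81 to 6.33 log2 CPM in controls and 4.18 to 5.98 in knockouts. With that mean as a covariate Sfrp4 kept its call (adjusted p of 0.0157), and the other 5 had adjusted p between 0.0615 and 0.0963. Their log2 differences in that fit were -0.43 for Dkk3, -0.30 for Fzd5, -0.43 for Fzd7 and -0.82 for Fzd8, close to those without the covariate, and 1.596 for Dkk2, which was smaller. Scaled by library size alone, 3 members were higher and 3 lower, Sfrp2 being added and Fzd5 lost. In the wider pathway that scaling called 3 higher and 3 lower, and 5 of the 10 genes above kept their call.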

How the data were processed

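RNA-seq of 6 aorta libraries was analysed from 2 deposited tables, and groups and replicate numbers came from the labels. The tools named in the submitters' processing notes are kallisto 0.46.2, Trim Galore 0.6.5 and FastQC 0.11.8, with the build GRCm38. The deposited estimated counts per gene are not whole, and which step scaled them is not given in the sources used here. The second deposited table holds length-scaled signal, TPM rescaled by the authors so that columns sum to between 955527 and 1034723. Counts were rounded, genes were kept by filterByExpr at a minimum count of 10, and TMM-scaled libraries were tested with edgeR 4.0.16 in R 4.3.3 (quasi-likelihood F-test, two-sided), with Benjamini-Hochberg adjustment over 17392 genes; standard errors are the log2 difference over the root of F. The fit was also run on simulated counts with the same dispersion (spread beyond counting error) for every gene and no library set apart. These settings differ from the data, and the outcome is not reported here. The totals of 51634139 to 54817547 limit the precision of genes under 1 CPM. No pair of libraries in a group matched within sampling noise.

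Members and gene lists were chosen with earlier results of these data known. By rule, values per library are given for called members, members of at least 1 CPM on average and tested members at least 2-fold apart. From each group of the wider pathway list the called genes and the 3 of lowest p are named, with values per library for only some of them. Alternatives were 3 other scalings, 3 filters, DESeq2 1.42.0, limma 3.58.1 (voom, and log2 of the signal + 1 or + 0.1), a replicate block, a fat covariate and omission of each library; summing the Fzd6 copies and DESeq2 without each library were chosen after seeing the data.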

Additional observations from a re-analysis of the deposited data

How the results depend on the processing

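The count of called members (6) was between 4 and 7 under the other scalings, the low-count filters, DESeq2, limma-voom, limma on log2(signal + 0.1) and summed Fzd6 copies. It was 3 with limma on log2(signal + 1), 1 with the fat covariate, 0 to 9 when 1 library was left out, and 11 with DESeq2 without knockout replicate 3 (6 to 11 by DESeq2 over the 6 omissions). The 10 called genes of the wider pathway became 6 with library size alone, 22 with DESeq2, 2 with limma on log2(signal + 1) and 2 with limma on log2(signal + 0.1). With the fat covariate 0 were called (27 at an unadjusted p under 0.05). When 1 library was left out, edgeR called 30 without knockout replicate 3 and 0 in every other omission. For all tested genes the 1798 calls became 3443 with DESeq2, 1073 with limma-voom, 712 and 942 with limma on log2(signal + 1) and log2(signal + 0.1), 287 with the fat covariate, and 0 to 5079 when 1 library was left out. The causes of these shifts were not tested, though leaving out a library also leaves fewer samples.

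With the replicate number as a block, edgeR called 8 members, 12 genes of the wider pathway and 1995 of all genes. All 6 called members and 7 of the 10 called pathway genes kept their call there, while Sost, Bambi and Daam1 lost it. Whether the numbers pair the samples is not known. Deviations of same-numbered libraries from their group means correlated at -0.08, 0.23 and 0.08, and only replicate 2 correlated best with its own number. With 3 libraries per group these correlations cannot decide it. Over the 6 called members, 150 of 150 alternative values kept their direction, which was likely from the start since their groups did not overlap. Of these values 39 lost the call, 27 of them where edgeR was run without 1 library and 5 with the fat covariate. Over the 23 members not called, 18 of 558 values gained a call.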

Other observations

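Some genes had knockout replicates 1 and 2 on one side of the controls and replicate 3 among them. Frzb, which encodes another secreted Frizzled-related protein and lies outside the symbol rule, had 47.1, 41.7 and 60.7 CPM in controls and 182, 183 and 49.9 CPM in knockouts. Knockout replicates 1 and 2 were far above every control, and replicate 3 was within the control range. Its log2 difference was 1.47 (SE 0.47; adjusted p by edgeR of 0.0914), and without knockout replicate 3 it was 1.87 with an edgeR adjusted p of 6.25e-04. Over all alternatives the adjusted p of Frzb ranged from 6.16e-30 to 0.255. Sfrp4 differed from this pattern in that knockout replicate 3, at 418 CPM, stayed well above the highest control, at 205 CPM. Among the members, Wnt2b and Fzd4 had knockout replicates 1 and 2 below every control and replicate 3 inside or above the control range. Without that library the log2 difference was -0.78 with an edgeR adjusted p of 0.0270 for Wnt2b and -0.25 with an edgeR adjusted p of 0.0305 for Fzd4, against adjusted p of 0.365 and 0.605 in all libraries. Without that library edgeR called 5079 of all 17720 tested genes, so gained calls were common. Frzb, Wnt2b and Fzd4 were chosen after their values were seen, and what sets knockout replicate 3 apart was not tested.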
